A study of Mus musculus with 10 samples.

Results

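The mitochondrial respiratory chain was described here through its nuclear-encoded subunits, in sorted skeletal stem cells of 3 kinds. Members were all genes whose symbol begins with Nduf and a subunit letter and number (complex I), Sdh and 1 of the letters a to d (complex II), Uqcr (complex III), Cox and a number from 4 to 8 (complex IV) or Atp5 (complex V). This rule uses names only and found 81 genes among the 15078 of the table: 37 of complex I, 4 of complex II, 8 of complex III, 16 of complex IV and 16 of complex V. A gene entered the tests where its values averaged 10 or more across the 10 libraries, which held for 80 members. The remaining member, Cox6a2, was listed at 0 in all graft BM-MSC and BM-MSC libraries.

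Complexes I and II feed electrons from NADH and succinate to ubiquinone, complex III passes them to cytochrome c, and complex IV hands them to oxygen. Complexes I, III and IV pump protons across the inner mitochondrial membrane, and complex V, the ATP synthase, uses the returning protons to make ATP. The mitochondrial genome encodes core subunits of complexes I, III, IV and V, whereas all subunits of complex II and most subunits of the others are made from nuclear genes and imported. Skeletal stem cells of the marrow are commonly described as relying strongly on glycolysis, with oxidative phosphorylation rising as they form osteoblasts.

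The graft BM-MSC group (n = 4) came from femurs of Postn Cre-ER; tdTomato mice that had been placed under the skin of wild-type hosts. Tamoxifen was given to the hosts after transplantation, and Tomato+ CD51+CD200+ stromal cells were sorted from the graft marrow at 5 months. The BM-MSC (n = 3) and P-SSC (n = 3) groups were CD51+CD200+ cells from the marrow and from the periosteum of wild-type mice that the labels call hosts at steady state, with no treatment, and the labels mark these 6 libraries as a re-analysis of other samples. All cells were negative for CD45, Ter119 and CD31 in the sort. Libraries BM-MSC 2+4 and P-SSC 2+5 each held combined RNA of a pair of mice. Cre-ER labels only cells that used Postn when tamoxifen was present, together with their descendants, so graft stroma of other origin was not sampled. Transplantation, the 5 months of ageing after it, the transgenes, tamoxifen and this re-analysis cannot be told apart in the graft comparisons.

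Libraries held 15415421 to 25223295 reads in genes, and 75 of the 81 members had at least 100 reads in every library. Cxcl12, the chemokine that defines marrow stroma, lay between 560618 and 995477 in all 7 marrow libraries and between 3503 and 7751 in P-SSCs. Other cell types left RNA unequally. The 9 red cell genes summed to 59297 to 213622 in BM-MSCs, 1566 to 27755 in graft BM-MSCs and 208 to 1407 in P-SSCs, with Slc4a1 and Epb42 at 0 in every graft and P-SSC library. The 9 neutrophil genes summed to 30850.3 to 93379, 5849 to 112646 and 33.9 to 287 in the same order. Of 10 skeletal muscle genes listed, 8 were in the table, and they summed to 452 to 1906 in P-SSCs against 0 to 248 in graft BM-MSCs and 66.8 to 129 in BM-MSCs. The 4 endothelial genes in the table summed to 3275 to 6871 in P-SSCs, 0 to 148 in graft BM-MSCs and 24.3 to 134 in BM-MSCs, and the 8 macrophage genes to 455 to 2632, 1446 to 13299 and 4618 to 16704. The part of these cell types in the values of the members was not tested. The libraries also split by base composition. Genes with over 65% GC were set against genes with 50 to 60% GC, on the log2 scale relative to their means. They lay 1.36 to 2.44 above them in the 4 graft BM-MSC libraries and P-SSC 4, and between -1.78 and -1.57 in the other 5. The members tested lie below this range, at 38.4 to 63.3% GC, and the mitochondrially encoded subunits at 31.9 to 41.1%. For genes under 45% GC the same measure was 0.15 to 0.58 in the graft libraries, -0.18 in P-SSC 4 and -0.47 to 0.18 in the other 5.

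Most nuclear-encoded subunits passed no test: 71 of the 81 members, the untested Cox6a2 included, were called in none of the 3 comparisons, which were fitted with limma on log2 values across all genes. In graft BM-MSCs against P-SSCs, 4 members rose (Uqcrfs1, Atp5md, Ndufa4 and Ndufb1) and 5 fell (Ndufv1, Ndufa13, Atp5b, Uqcrc1 and Atp5a1), which is 9 of 80 tested, or 11.2%, against 18.1% of all 13644 genes tested (6.08% higher and 12% lower). In graft BM-MSCs against BM-MSCs, Atp5md rose and Ndufv1, Ndufs3, Atp5b, Uqcrc1 and Atp5a1 fell, which is 6 members or 7.50%, against 7.67% of all genes (2.61% higher and 5.06% lower). Both comparisons use the same graft libraries. Between P-SSCs and BM-MSCs, 0 members passed limma's test, against 9.15% of all genes (4.57% higher and 4.58% lower). There, 3 members had an unadjusted p under 0.05, edgeR called 0 and DESeq2 called 2. The share of members called was below the background in 2 comparisons and near it in graft BM-MSCs against BM-MSCs. Leaving out P-SSC 4 raised the counts to 19 and 12 in the graft comparisons, leaving out P-SSC 1 lowered the first to 3, and leaving out BM-MSC 1, BM-MSC 2+4 or BM-MSC 3 lowered the second to 3, 2 and 2.

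The median log2 difference over the 80 members was -0.06 for graft BM-MSCs against P-SSCs, where the median of all genes was -0.47, and -0.24 against BM-MSCs, where it was -0.53. For P-SSCs against BM-MSCs it was -0.20, with 0.00 over all genes. The first median was 0.30 with quantile normalization and ran from -0.33 without P-SSC 4 to 0.23 without P-SSC 2+5, so its sign depends on scaling and on single libraries. The third ran from -0.41 without P-SSC 2+5 to 0.07 without P-SSC 4, so its sign also turned on 1 library. Of the members, 36, 26 and 24 had a difference above 0 in these comparisons. Scaling bore on the split of calls: quantile normalization gave 10 higher members and 1 lower for the graft against P-SSCs, and with centring on the median 2 were higher and 2 lower. Against BM-MSCs the counts were 1 higher and 3 lower with quantile normalization and 0 higher and 2 lower with centring. In bulk RNA, fewer cells of a type and less RNA per cell cannot be told apart.

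Libraries shifted most members together. P-SSC 2+5 was the library with the highest value for 39 of the 80 members and lay above the gene mean in 74 of them, whereas P-SSC 4 was the lowest for 44 and above the gene mean in 8. Their median deviations from the gene means were 0.49 and -0.56 on the log2 scale, so the P-SSC group spanned the range of the other groups. The other 8 libraries lay between -0.21 in graft BM-MSC 4 and 0.32 in BM-MSC 2+4. The median SD of a member within a group was 0.53 in P-SSCs, 0.27 in graft BM-MSCs and 0.24 in BM-MSCs, against 0.66, 1.12 and 0.50 over all genes. All genes were not matched to the members in level, so these SDs cannot show whether members were unusually steady. The ranges of the groups stayed apart for 10 members between graft BM-MSCs and P-SSCs (26.6% of all genes), 29 against BM-MSCs (25%) and 3 between P-SSCs and BM-MSCs (30.9%). As shares of the members these were 12.5%, 36.2% and 3.75%. Of the 29 against BM-MSCs, 20 were lower and 9 higher in the graft.

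**Figure D1:**
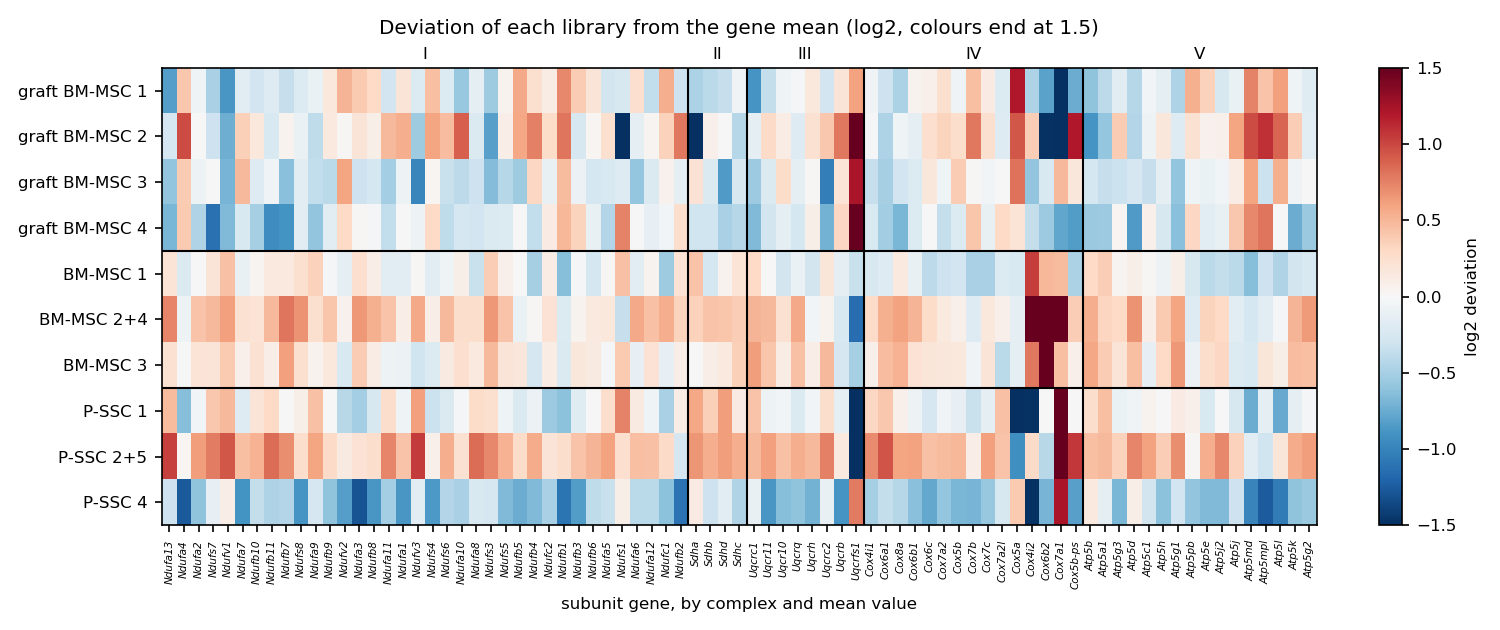
Deviation of each library (rows) from the mean of the gene over all 10 libraries, on the log2(value + 1) scale, for 79 of the 80 members tested (columns, by complex I to V and by falling mean value). Colours end at 1.5. P-SSC 2+5 is above the mean for 74 of the 80 and P-SSC 4 for 8, and the graft libraries show high and low members side by side.

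**Figure D2:**
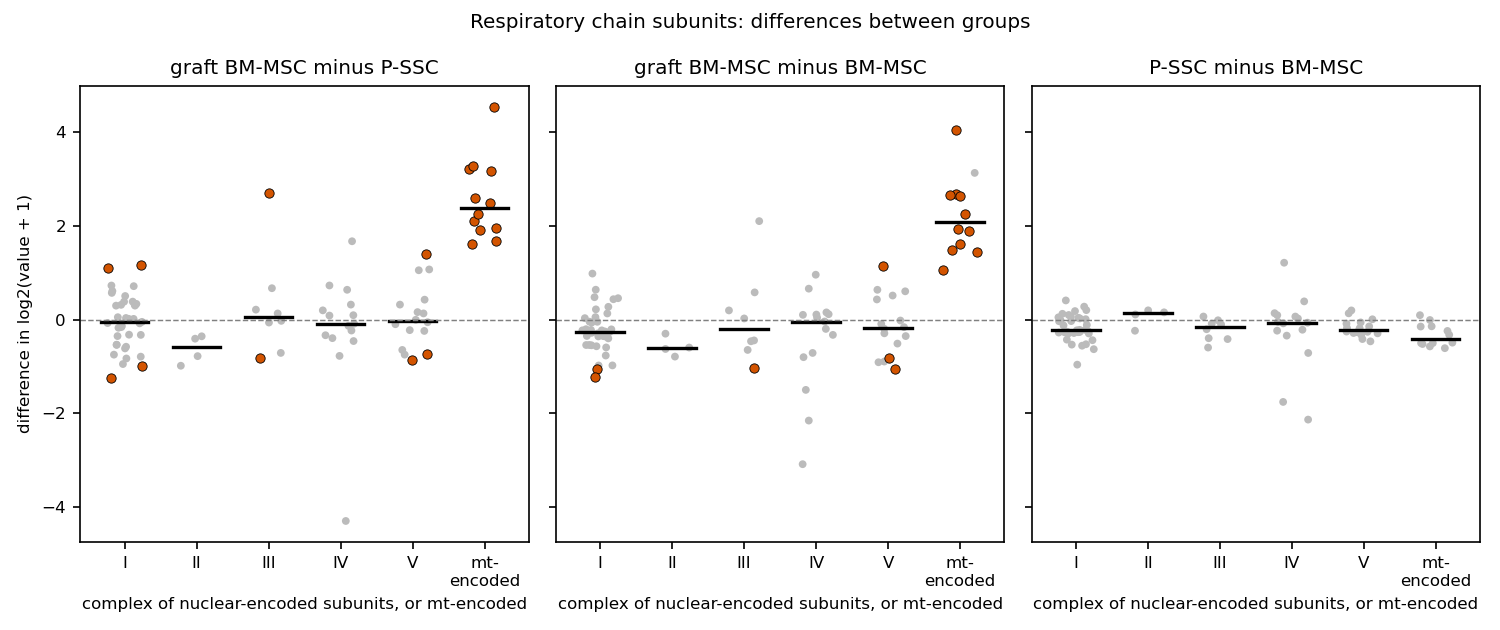
Difference in log2(value + 1) of each nuclear-encoded subunit by complex, and of the 12 mitochondrially encoded subunits tested, in the 3 comparisons. Each point is a gene, orange points passed limma's test at an adjusted p under 0.05, and black bars are medians. Medians of complexes I to V lie between -0.61 and 0.13, and those of the mitochondrially encoded subunits at 2.37, 2.08 and -0.41.

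In complex I, the entry point for NADH, 2 of 37 members rose and 2 fell in graft BM-MSCs against P-SSCs, and 0 rose and 2 fell against BM-MSCs, with medians of -0.05 and -0.26. The fall of Ndufv1, the flavoprotein that binds NADH, was the largest of any called member (ENSMUSG00000037916, GRCm38 chromosome 19, 4007384 to 4012806, minus strand). Its values were 1907, 2104, 2160.1 and 2215 in the graft BM-MSC libraries, 4753, 5390.1 and 4608 in the BM-MSC libraries and 4913, 6712 and 3758 in the P-SSC libraries. Every graft library lay below every other library. The log2 difference was -1.25 ± 0.22 (SE, adjusted p = 0.00286) against P-SSCs and -1.23 ± 0.22 (SE, adjusted p = 0.00967) against BM-MSCs by limma with Benjamini-Hochberg adjustment, as for all adjusted p given here.

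Ndufs3, another core subunit of the hydrophilic arm, fell against BM-MSCs. Its values were 1185, 981, 1099 and 1478 in the graft BM-MSC libraries, 2218, 2701 and 2402 in the BM-MSC libraries and 2036, 2833 and 1450.1 in the P-SSC libraries. Graft BM-MSC 4 reached P-SSC 4, so these groups overlapped, while all BM-MSC libraries were higher than the graft. The difference was -1.05 ± 0.28 (SE, adjusted p = 0.0462) against BM-MSCs and -0.79 ± 0.28 (SE, adjusted p = 0.0750) against P-SSCs, and whether these 2 differ was not tested. The call was lost in 7 of the 10 fits that each left out 1 library, where the difference ran from -1.16 without graft BM-MSC 4 to -0.97 without graft BM-MSC 2. Ndufa13, an accessory subunit also known as GRIM-19 and the member of complex I with the highest mean, fell against P-SSCs with -0.98 ± 0.31 (SE, adjusted p = 0.0498), at the edge of the threshold. Its values were 2524, 3738, 2971 and 2769.6 in the graft BM-MSC libraries, 5167, 7409 and 5226 in the BM-MSC libraries and 6189, 9118 and 3594 in the P-SSC libraries. Graft BM-MSC 2 and P-SSC 4 overlapped, and the difference of -0.98 ± 0.31 (SE, adjusted p = 0.0834) against BM-MSCs did not pass limma's test. The limma call of Ndufa13 against P-SSCs was lost in 8 of the 10 fits that each left out 1 library. There the difference ran from -1.34 without P-SSC 4 to -0.67 without P-SSC 2+5. DESeq2 called Ndufa13 and Ndufs3 lower in both graft comparisons, and edgeR called neither.

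Ndufa4, which is counted with complex I by name but also works in complex IV, rose against P-SSCs. Its values were 4953, 7386, 4900.3 and 4945 in the graft BM-MSC libraries, 3234, 3562 and 3765 in the BM-MSC libraries and 2416, 3833 and 1564 in the P-SSC libraries. All graft libraries were above all others, with graft BM-MSC 2 the highest. The difference was 1.16 ± 0.30 (SE, adjusted p = 0.0212) against P-SSCs and 0.63 ± 0.30 (SE, adjusted p = 0.210) against BM-MSCs. Without P-SSC 1 the call of Ndufa4 was lost at a difference of 1.16. The row named Ndufb1 carries the identifier ENSMUSG00000113902, which GENCODE M21 names Ndufb1-ps and lists as a noncoding RNA from a bidirectional promoter, so its reads may be shared with a protein-coding copy. It measured 1965, 2088, 1663 and 1678 in the graft BM-MSC libraries, 762, 1035 and 1029 in the BM-MSC libraries and 777, 1436 and 559 in the P-SSC libraries, with no overlap between the graft and the other groups. The difference was 1.11 ± 0.34 (SE, adjusted p = 0.0456) against P-SSCs and 0.98 ± 0.34 (SE, adjusted p = 0.108) against BM-MSCs. The call was lost in 9 of the 10 fits that each left out 1 library, where the difference ran from 0.80 without P-SSC 4 to 1.48 without P-SSC 2+5. Neither edgeR nor DESeq2 called Ndufb1.

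Ndufs1, the largest iron-sulfur subunit, measured 856, 278, 884 and 1706 in the graft BM-MSC libraries, 1373, 797 and 1331 in the BM-MSC libraries and 1694, 1206 and 1081 in the P-SSC libraries, and its graft libraries ran from below to above both other groups. The differences were -0.75 ± 0.54 (SE, adjusted p = 0.366) against P-SSCs and -0.55 ± 0.54 (SE, adjusted p = 0.545) against BM-MSCs, and neither passed. Over the whole complex, differences ran from -1.25 to 1.16 against P-SSCs, from -1.23 to 0.98 against BM-MSCs and from -0.96 to 0.41 for P-SSCs against BM-MSCs. Its 37 nuclear members summed to 72098 to 92864 in graft BM-MSCs, 87173 to 109053 in BM-MSCs and 58703 to 121406 in P-SSCs.

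In complex II, succinate dehydrogenase, 0 of 4 members passed limma's test in any comparison, with 2 at an unadjusted p under 0.05 in each graft comparison and 0 between P-SSCs and BM-MSCs, and edgeR and DESeq2 called 0 as well. All 4 had differences below 0 in graft BM-MSCs, with medians of -0.59 against P-SSCs and -0.61 against BM-MSCs, beside -0.47 and -0.53 over all genes. Sdha, the flavoprotein that oxidises succinate, measured 3891, 1829.9, 6285 and 4412 in the graft BM-MSC libraries, 7275, 6907 and 5427 in the BM-MSC libraries and 8089, 8574 and 5898 in the P-SSC libraries. Graft BM-MSC 2 was the lowest and graft BM-MSC 3 lay inside both other groups. Sdhb, the iron-sulfur subunit, measured 3251, 4532, 3706 and 3516 in the graft BM-MSC libraries, 3593, 5826 and 4618 in the BM-MSC libraries and 5518, 6272 and 3486 in the P-SSC libraries, with overlap among all groups. Sdhc and Sdhd, which anchor the complex in the membrane, gave -0.36 and -0.78 against P-SSCs and -0.60 and -0.63 against BM-MSCs, where the graft values of both did not overlap with BM-MSCs. The adjusted p over the 4 genes ranged from 0.0748 to 0.491 in the graft comparisons. With a correction for GC content the medians were 0.31 and 0.23, beside 0.30 and 0.25 over all genes.

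In complex III, Uqcrfs1 rose and Uqcrc1 fell against P-SSCs, and Uqcrc1 fell against BM-MSCs, of 8 members tested. Uqcrfs1, the Rieske iron-sulfur protein that passes electrons to cytochrome c1, had the largest rise of any member (ENSMUSG00000038462, chromosome 13, 30540308 to 30545362, minus strand). Its values were 967, 2612, 1489 and 2329 in the graft BM-MSC libraries, 501, 287 and 449.7 in the BM-MSC libraries and 112, 152 and 1088 in the P-SSC libraries. The rise rested on the low values of P-SSC 1 and P-SSC 2+5, since P-SSC 4 lay within the graft range. The difference was 2.69 ± 0.72 (SE, adjusted p = 0.0270) against P-SSCs and 2.10 ± 0.72 (SE, adjusted p = 0.108) against BM-MSCs. It was 3.71 without P-SSC 4. With the split of libraries by GC content as a covariate, where P-SSC 4 alone stands for P-SSCs, it was 0.66 and the call was lost. Without 1 of 4 libraries in turn the call was also lost, and the difference was 2.08 without P-SSC 1. DESeq2 called Uqcrfs1 higher in both graft comparisons, and edgeR in neither.

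Uqcrc1, a core protein of complex III that faces the matrix, had the highest mean of the complex. Its values were 4594, 7730.3, 5832 and 5363 in the graft BM-MSC libraries, 10422, 12115 and 13108 in the BM-MSC libraries and 11412, 11939.7 and 7890.4 in the P-SSC libraries. All graft libraries lay below all others, although graft BM-MSC 2 came close to P-SSC 4. The difference was -0.83 ± 0.22 (SE, adjusted p = 0.0279) against P-SSCs and -1.03 ± 0.22 (SE, adjusted p = 0.0220) against BM-MSCs. The call against P-SSCs was lost in 5 of the 10 fits that each left out 1 library (graft BM-MSC 1, 3 or 4, P-SSC 1 or P-SSC 2+5), with differences from -1.02 to -0.72, and that against BM-MSCs in 2 (BM-MSC 2+4 or BM-MSC 3), with differences from -1.18 to -0.92. Its partner core protein Uqcrc2 gave -0.71 ± 0.35 (SE, adjusted p = 0.192) and -0.65 ± 0.35 (SE, adjusted p = 0.280), with overlap. Among the small accessory subunits, Uqcrb was above all other libraries in each graft library but did not pass, with 0.67 ± 0.28 (SE, adjusted p = 0.127) against P-SSCs and 0.58 ± 0.28 (SE, adjusted p = 0.227) against BM-MSCs. The complex ran from -0.83 to 2.69 against P-SSCs.

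In complex IV, cytochrome c oxidase, 0 of 15 members tested passed limma's test in any comparison, with 4, 5 and 2 at an unadjusted p under 0.05 in the order given above. edgeR called 0 in each, and DESeq2 called Cox6b2 lower in the graft than in BM-MSCs and Cox4i2 and Cox6b2 lower in P-SSCs than in BM-MSCs. Cox4i1, the ubiquitous form of subunit 4 and the member with the highest mean, measured 9878, 10126, 8093 and 8794 in the graft BM-MSC libraries, 8668, 12529.7 and 10828 in the BM-MSC libraries and 12747, 16749.8 and 7289 in the P-SSC libraries. The groups overlapped, and the difference was -0.34 ± 0.27 (SE, adjusted p = 0.419) against P-SSCs and -0.20 ± 0.27 (SE, adjusted p = 0.664) against BM-MSCs. Cox5a, which joins subunit 4 on the matrix side, measured 928, 773, 711 and 465 in the graft BM-MSC libraries, 346, 367 and 367 in the BM-MSC libraries and 92.4, 213 and 532 in the P-SSC libraries. As with Uqcrfs1, P-SSC 1 and P-SSC 2+5 were the lowest libraries and P-SSC 4 lay within the graft range, and the difference was 1.67 ± 0.57 (SE, adjusted p = 0.0671) against P-SSCs and 0.95 ± 0.57 (SE, adjusted p = 0.320) against BM-MSCs.

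Several subunits of complex IV exist as tissue isoforms. Cox4i2, a form of subunit 4 known from lung and from oxygen-sensing and mural cells, measured 183, 325, 167 and 196 in the graft BM-MSC libraries, 518, 939.7 and 435 in the BM-MSC libraries and 89.3, 308 and 89.2 in the P-SSC libraries. BM-MSCs were above every other library, but neither graft BM-MSCs (adjusted p = 0.155) nor P-SSCs (adjusted p = 0.0717) passed the test against them. Per kilobase of transcript its mean level was 861 in BM-MSCs against 13955 for Cox4i1, and 297 against 12056 in graft BM-MSCs. Cox6b2, known as a testis form, measured 63.8, 39.6, 95.7 and 76.8 in the graft BM-MSC libraries, 159, 399 and 409 in the BM-MSC libraries and 113, 84.1 and 68.8 in the P-SSC libraries. BM-MSCs were again above every other library. Its differences from BM-MSCs were -2.15 ± 0.73 (SE, adjusted p = 0.103) in the graft and -1.76 ± 0.78 (SE, adjusted p = 0.255) in P-SSCs. The partner Cox6b1 gave -0.33 and -0.24, and per kilobase Cox6b2 was at 551 and Cox6b1 at 9792 in BM-MSCs.

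The isoforms of heart and skeletal muscle were scarce. Cox7a1 measured 0, 0, 26.2 and 10.4 in the graft BM-MSC libraries, 26.1, 61.2 and 25.6 in the BM-MSC libraries and 61.3, 195 and 44.6 in the P-SSC libraries. P-SSC 2+5 was the highest, and P-SSCs were above the graft in all libraries, although the difference of -4.29 ± 1.47 (SE, adjusted p = 0.0677) did not pass. Cox6a2 was listed at 0 in all marrow libraries and in P-SSC 1, and measured 33.1 in P-SSC 2+5 and 13.6 in P-SSC 4. Acta1, skeletal muscle actin, was at 0 in all 7 marrow libraries and at 547, 893 and 206 in P-SSCs, with P-SSC 2+5 again the highest, and its part in these values was not tested. The partner forms were abundant in all groups. Cox7a2 measured 3511, 3728, 2832 and 2315 in the graft BM-MSC libraries, 2381, 3277 and 3323 in the BM-MSC libraries and 2859.6, 4107 and 1983 in the P-SSC libraries. Cox6a1 measured 5607, 5044, 4888 and 4831 in the graft BM-MSC libraries, 6052, 10015 and 9544 in the BM-MSC libraries and 9142, 13333 and 5409.9 in the P-SSC libraries. Cox8a, the common form of subunit 8, measured 4133, 5513, 4712 and 3561 in the graft BM-MSC libraries, 6356, 8769 and 8238 in the BM-MSC libraries and 6045, 8693 and 4275 in the P-SSC libraries. For Cox6a1 and Cox8a the graft was below all BM-MSC libraries, with differences of -0.71 and -0.80 that did not pass (adjusted p = 0.165 and 0.0952). Cox5b-ps, named Gm11273 in GENCODE M21, is a copy of Cox5b that may share its reads, and it was between 9.49 and 42.2 in all libraries.

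In complex V, 2 subunits of the catalytic head fell in the graft and 1 small membrane subunit rose, of 16 members tested in each comparison. Atp5b, the catalytic beta subunit and the member with the highest mean, fell in both graft comparisons (ENSMUSG00000025393, chromosome 10, 128083273 to 128090391, plus strand). Its values were 12945, 10604, 16359.6 and 13376 in the graft BM-MSC libraries, 24182, 28541 and 29368 in the BM-MSC libraries and 23559, 26844 and 21732 in the P-SSC libraries. Graft libraries lay below all others, and the difference was -0.86 ± 0.17 (SE, adjusted p = 0.00631) against P-SSCs and -1.05 ± 0.17 (SE, adjusted p = 0.00675) against BM-MSCs. Atp5a1, the alpha subunit that alternates with beta in the catalytic ring, measured 9557, 8453, 9902 and 8647 in the graft BM-MSC libraries, 16205, 15678 and 16405 in the BM-MSC libraries and 17255, 17608 and 11413 in the P-SSC libraries. It too was lower in every graft library than in any other, with differences of -0.73 ± 0.18 (SE, adjusted p = 0.0177) and -0.82 ± 0.18 (SE, adjusted p = 0.0233). The calls of Atp5a1 were lost without P-SSC 1 or P-SSC 2+5 against P-SSCs, where all 10 fits gave -0.93 to -0.62, and without any 1 of the BM-MSC libraries against BM-MSCs, where they gave -0.86 to -0.78. Both falls were lost with a correction for GC content, which gave -0.01 and 0.28 against P-SSCs and -0.17 and 0.13 against BM-MSCs. That correction also rescales the libraries. It moved the median of all genes from -0.47 to 0.30 against P-SSCs and from -0.53 to 0.25 against BM-MSCs. The parts of rescaling and of GC content in the lost falls were not tested.

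Atp5md, the small membrane subunit known as DAPIT and named Usmg5 in GENCODE M21, rose in both graft comparisons (ENSMUSG00000071528, chromosome 19, 47083464 to 47090647, minus strand). Its values were 2303, 2723, 2075 and 2267 in the graft BM-MSC libraries, 886, 1143 and 1177 in the BM-MSC libraries and 821, 1231 and 691 in the P-SSC libraries. Every graft library was above every other library. The difference was 1.39 ± 0.27 (SE, adjusted p = 0.00522) against P-SSCs and 1.14 ± 0.27 (SE, adjusted p = 0.0329) against BM-MSCs, and with a correction for GC content it was 1.93 (adjusted p = 0.0172) and 1.72 (adjusted p = 0.0478). With the split of libraries as a covariate it stayed past the threshold against P-SSCs (1.75, adjusted p = 0.0129) but not against BM-MSCs (adjusted p = 0.181). Other small membrane subunits did not pass. Atp5l gave 1.05 ± 0.35 (SE, adjusted p = 0.0648) and Atp5mpl 1.07 ± 0.40 (SE, adjusted p = 0.0899) against P-SSCs. Atp5d, the delta subunit of the central stalk, was lower in all graft libraries but did not pass limma's test. Its differences were -0.75 ± 0.25 (SE, adjusted p = 0.0625) against P-SSCs and -0.90 ± 0.25 (SE, adjusted p = 0.0560) against BM-MSCs. DESeq2 called Atp5d lower in both graft comparisons. The call of Atp5md against BM-MSCs was lost in 6 of the 10 fits that each left out 1 library, and that against P-SSCs in 0. The 3 genes for the proton-carrying c subunit, Atp5g1, Atp5g2 and Atp5g3, encode the same mature protein and gave -0.91, -0.51 and -0.20 against BM-MSCs. None passed limma's test, while DESeq2 called Atp5g1 lower.

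**Figure D3:**
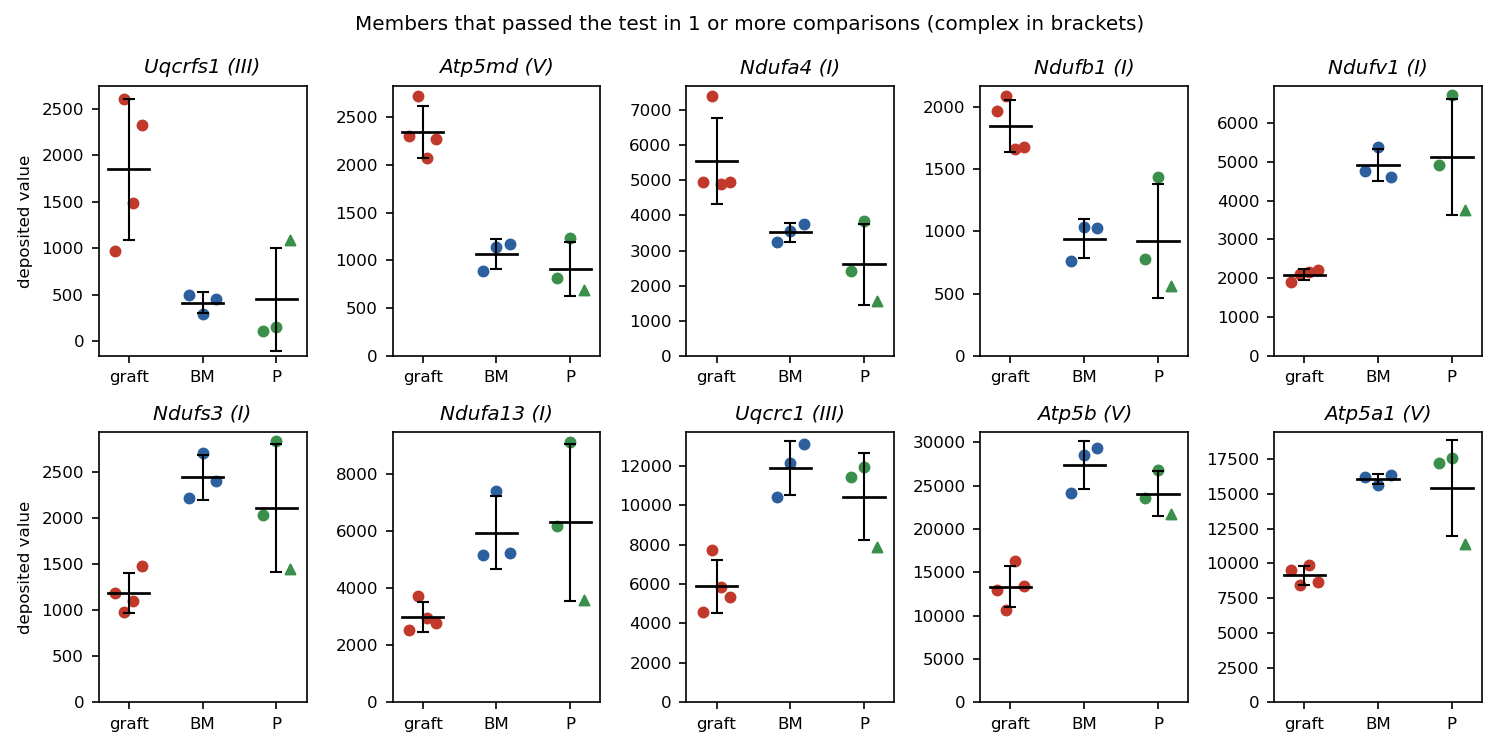
Deposited values of the 10 members that passed the test in 1 or more comparisons, per library, with group means (horizontal lines) and SD (error bars), on linear axes from 0, apart from Uqcrfs1, whose axis runs below 0 to show the error bar. Graft BM-MSC has n = 4, BM-MSC and P-SSC n = 3, and the triangle marks P-SSC 4. For Ndufv1, Uqcrc1, Atp5b and Atp5a1 every graft library is below all others, for Atp5md, Ndufa4 and Ndufb1 above all others, and for Uqcrfs1 P-SSC 4 lies at 1088, within the graft range.

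Promoters of the members were read from RefSeq sequence of GRCm38.p6, which gave 66 of the 81 members. Windows of 250 bases before to 50 after the start were searched on both strands for CGCATGCG, the core of the NRF1 palindrome, CCGGAAG, an ETS site of the kind bound by GABPA, and AAGATGGC, a YY1 site. CGCATGCG was in 9 of 66 member promoters (13.6%), against 3.84% of the promoters of genes in the table and 2.07% of all promoters. AAGATGGC was in 10 (15.2%, against 4.74% and 3.19%), mostly after the start, and CCGGAAG in 17 (25.8%, against 18.3% and 9.93%). Shown first are the 250 bases before the start of the members with the largest rises and falls among the calls, Uqcrfs1 (chr13:30545317-30545566, minus strand), Atp5md (chr19:47090648-47090897, minus strand) and Ndufv1 (chr19:4012756-4013005, minus strand), none of which holds any of the strings in this stretch. RefSeq starts can differ from the GENCODE gene ends given above. They stand beside Atp5j (chr16:84834977-84835226, minus strand), chosen after the search because all 3 strings lie before its start, and capitals mark these.
Uqcrfs1: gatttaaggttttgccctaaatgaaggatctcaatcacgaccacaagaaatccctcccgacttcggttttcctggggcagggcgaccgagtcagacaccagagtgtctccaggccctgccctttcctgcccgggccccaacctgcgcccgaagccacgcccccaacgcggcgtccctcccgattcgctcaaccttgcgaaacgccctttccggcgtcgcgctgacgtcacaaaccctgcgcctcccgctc
Atp5md: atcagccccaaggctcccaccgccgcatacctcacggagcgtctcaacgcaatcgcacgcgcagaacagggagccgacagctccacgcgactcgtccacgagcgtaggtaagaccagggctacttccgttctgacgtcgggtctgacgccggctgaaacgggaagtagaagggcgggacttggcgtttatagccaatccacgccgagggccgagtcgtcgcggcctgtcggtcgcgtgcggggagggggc
Ndufv1: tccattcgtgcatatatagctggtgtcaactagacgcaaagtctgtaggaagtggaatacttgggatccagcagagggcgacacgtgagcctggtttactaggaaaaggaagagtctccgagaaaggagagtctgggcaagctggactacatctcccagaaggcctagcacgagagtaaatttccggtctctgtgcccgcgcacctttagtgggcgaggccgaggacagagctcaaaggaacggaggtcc
Atp5j: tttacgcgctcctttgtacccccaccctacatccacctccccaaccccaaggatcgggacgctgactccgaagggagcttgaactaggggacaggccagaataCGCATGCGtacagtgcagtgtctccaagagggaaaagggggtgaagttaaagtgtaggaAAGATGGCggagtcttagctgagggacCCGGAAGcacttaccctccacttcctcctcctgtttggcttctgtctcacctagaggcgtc
Atp5j, a subunit of the stalk that holds the catalytic head to the membrane part, measured 2489.7, 4018, 2894 and 3531 in the graft BM-MSC libraries, 2022, 2371 and 2317 in the BM-MSC libraries and 2269, 3397 and 2155 in the P-SSC libraries, with 0.32 ± 0.25 (SE, adjusted p = 0.411) against P-SSCs and 0.51 ± 0.25 (SE, adjusted p = 0.228) against BM-MSCs. Of the called members, Uqcrc1 holds CGCATGCG and Atp5md holds CCGGAAG after the start, and Ndufs3 holds CCGGAAG on both sides of it.

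The mitochondrially encoded subunits of the same complexes were higher in the graft. Of 13 genes, 12 were tested. In graft BM-MSCs 12 rose against P-SSCs and 11 against BM-MSCs, where 6.08% and 2.61% of all genes were higher. Between P-SSCs and BM-MSCs 0 were called, against 9.15% of all genes (limma, 1 at an unadjusted p under 0.05, 0 by edgeR and 0 by DESeq2). The median differences were 2.37 and 2.08 in the graft comparisons. mt-Cytb, the cytochrome b of complex III, measured 53428, 39101, 42519 and 53729.6 in the graft BM-MSC libraries, 20418, 16333 and 15645 in the BM-MSC libraries and 14349.7, 13681 and 8971 in the P-SSC libraries. mt-Nd1, a membrane subunit of complex I, measured 22017, 15309.7, 15531 and 24122 in the graft BM-MSC libraries, 5247, 3683 and 3255 in the BM-MSC libraries and 3896, 3946 and 2462 in the P-SSC libraries. mt-Co1, the catalytic subunit of complex IV, measured 31487, 31002, 26208 and 34018 in the graft BM-MSC libraries, 15609, 8756 and 9754 in the BM-MSC libraries and 11945, 10709 and 7708 in the P-SSC libraries. The graft was above every other library for each of them, as for all 12 genes in both comparisons. Over all genes, ranges stayed apart in either direction for 26.6% against P-SSCs and 25% against BM-MSCs.

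Fitted differences were 1.95 ± 0.21 (SE, adjusted p = 0.000141) and 1.43 ± 0.21 (SE, adjusted p = 0.00398) for mt-Cytb, 2.49 ± 0.26 (SE, adjusted p = 0.000141) and 2.24 ± 0.26 (SE, adjusted p = 0.00182) for mt-Nd1, and 1.62 ± 0.23 (SE, adjusted p = 0.000779) and 1.47 ± 0.23 (SE, adjusted p = 0.00530) for mt-Co1, against P-SSCs and BM-MSCs in turn. Summed over the 13 genes, values were 110871 to 143935 in graft BM-MSCs, 36759 to 52821 in BM-MSCs and 24063 to 38176 in P-SSCs, while the 81 nuclear members summed to 208297 to 249704, 249707 to 315965 and 188007 to 353456. The ratio of the first sum to the second was 0.475 to 0.691 in the graft, 0.117 to 0.212 in BM-MSCs and 0.102 to 0.143 in P-SSCs. By complex, the graft ratio was 0.462 to 0.725 for complex I, 1.28 to 2.48 for complex III and 0.718 to 0.981 for complex IV. In BM-MSCs it reached 0.180, 0.765 and 0.424 at most, and in P-SSCs it was 0.0897 to 0.124, 0.378 to 0.515 and 0.169 to 0.269. These are ratios of values, not of molecules.

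Every graft library also had fewer genes detected than any other library, 9308 to 11674 against 12217 to 13341 of 15078, and the part of this in the mitochondrial values was not tested. P-SSC 4 resembled the graft libraries in genes over 65% GC but not in genes under 45% GC, where the mitochondrially encoded subunits lie (31.9 to 41.1%). Relative to genes with 50 to 60% GC, those under 45% were at -0.18 in P-SSC 4 and 0.15 to 0.58 in the graft. P-SSC 4 was the lowest library for 44 of the 80 nuclear members and had a mitochondrial sum of 24063, the lowest of the 10. With the split as a covariate the median difference was 2.90 against P-SSCs, where the graft is in effect compared with P-SSC 4 alone. Against BM-MSCs it was 2.97, but no BM-MSC library is on the graft side of the split, so that split and group cannot be separated. With a correction for GC content 11 passed in each graft comparison. Leaving out BM-MSC 2+4 or BM-MSC 3 lowered the count against BM-MSCs to 6, and the 12 genes come from 1 circular genome, so they are not independent. Neighbouring mitochondrial genes such as mt-Atp6 and mt-Atp8 overlap, and copies in the nuclear genome may share reads.

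**Figure D4:**
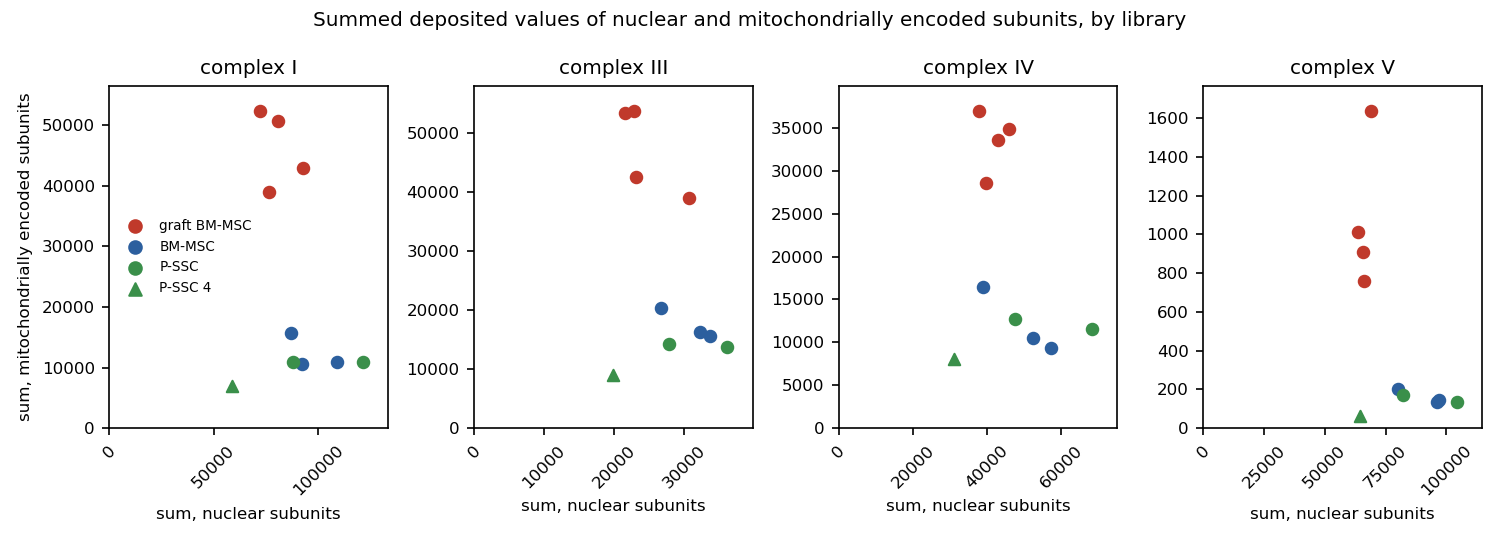
Sum of the values of the mitochondrially encoded subunits (vertical axis) against that of the nuclear-encoded subunits (horizontal axis) of complexes I, III, IV and V, with 1 point per library and linear axes from 0. Red is graft BM-MSC (n = 4), blue BM-MSC (n = 3) and green P-SSC (n = 3, the triangle is P-SSC 4). All graft points lie above all others. Along the horizontal axis the groups overlap in complexes I, III and IV, and in complex V the graft lies below BM-MSCs but overlaps P-SSCs through P-SSC 4.

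Genes that build, regulate or feed the chain were read from lists. Of 47 assembly factors tested, 1 rose (Tmem70, for complex V) and 1 fell (Uqcc2, for complex III) in the graft against P-SSCs. Against BM-MSCs 1 rose in the graft (Ttc19, for complex III) and 1 in P-SSCs (Uqcc2). These are 4.26%, 2.13% and 2.13%, against 18.1%, 7.67% and 9.15% of all genes. By edgeR only Uqcc2 was called, in the graft against P-SSCs. DESeq2 kept the limma calls and added others in the graft comparisons. Uqcc2 measured 1663, 1259, 1161 and 2228 in the graft BM-MSC libraries, 1499.7, 2059 and 1553 in the BM-MSC libraries and 4033, 7609 and 3211 in the P-SSC libraries, so P-SSCs were above all marrow libraries, with -1.60 ± 0.34 (SE, adjusted p = 0.00871) for the graft against P-SSCs and 1.45 ± 0.37 (SE, adjusted p = 0.0318) for P-SSCs against BM-MSCs. Tmem70 measured 1649.7, 772, 1147 and 634 in the graft BM-MSC libraries, 227, 84.4 and 193 in the BM-MSC libraries and 51.9, 104 and 515 in the P-SSC libraries, with P-SSC 4 again nearest to the graft, and gave 2.79 ± 0.77 (SE, adjusted p = 0.0302) against P-SSCs. With the split of libraries as a covariate this became 0.93 (adjusted p = 0.621), and with a correction for GC content the calls of Uqcc2 were lost (adjusted p = 0.307 and 0.136). Ttc19 gave 5.24 (adjusted p = 0.0476) against BM-MSCs, with graft values of 59.9, 559, 459 and 768 against 1.04, 41.1 and 6.90, and was not called with the split (adjusted p = 0.875). Of 5 tested genes for cytochrome c and for subunits or their relatives outside the name rule, 0 passed limma's test, with 2, 0 and 1 at an unadjusted p under 0.05 over the 3 comparisons in turn, and 0 by edgeR and DESeq2. Cyc1, the cytochrome c1 of complex III, measured 1905, 3239, 1962 and 2605 in the graft BM-MSC libraries, 1847, 1641 and 2187 in the BM-MSC libraries and 468, 585 and 2362 in the P-SSC libraries, and P-SSC 1 and P-SSC 2+5 were lowest as for Uqcrfs1 and Cox5a.

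In the citric acid cycle, which supplies NADH and succinate, 4 of 13 genes fell against P-SSCs (Cs, Idh3b and Ogdh among them) and 4 against BM-MSCs (Cs, Idh3b and Mdh2 among them). This is 30.8% in each, where 12% and 5.06% of all genes were lower. By edgeR 1 was lower in each comparison, and by DESeq2 4. Medians were -0.48 and -0.49 beside -0.47 and -0.53 over all genes. Cs, citrate synthase, measured 2177, 1747, 1685 and 2597 in the graft BM-MSC libraries, 3465, 4709.9 and 4458 in the BM-MSC libraries and 3825, 4624 and 2846 in the P-SSC libraries. Its difference was -0.87 ± 0.25 (SE, adjusted p = 0.0361) and -1.05 ± 0.25 (SE, adjusted p = 0.0322). With a correction for GC content 0 of the 13 passed in either comparison, with 1 and 1 at an unadjusted p under 0.05. Of 13 tested regulators of mitochondrial biogenesis, 1 passed, which is 7.69% in each graft comparison, against 18.1% and 7.67% of all genes. This was Twnk, the helicase that unwinds mitochondrial DNA for copying, with 0, 0, 19.1 and 9.49 in the graft BM-MSC libraries, 159, 221 and 182 in the BM-MSC libraries and 289.8, 162 and 219 in the P-SSC libraries. It fell in the graft, with fitted differences of -5.84 ± 1.31 (SE, adjusted p = 0.0109) and -5.61 ± 1.31 (SE, adjusted p = 0.0292) that depend on the pseudocount because 2 graft libraries were at 0. With the split neither passed (adjusted p = 0.129 and 0.591). Ppargc1a was too low to be tested, and Tfam, the packaging factor of mitochondrial DNA, gave -2.27 ± 1.82 (SE, adjusted p = 0.423) and -2.43 ± 1.82 (SE, adjusted p = 0.431), with graft BM-MSC 2 listed at 0.

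In the graft comparisons, members of lower GC content had the higher differences. Over the 80 members the Spearman correlation between GC content of the longest coding transcript and the log2 difference was -0.46 against P-SSCs and -0.48 against BM-MSCs, while over 13622 genes it was -0.04 and -0.03. Genes share the libraries and are not independent, so no p is given. The 11 members under 45% GC had a median of 0.67 against P-SSCs and 0.43 against BM-MSCs, with 10 and 9 above 0. The 23 members at 55% or more had -0.34 and -0.54, with 17 and 19 below 0. For P-SSCs against BM-MSCs the correlation was 0.12. Of the called members that rose, Atp5md was at 42.2% GC, Ndufa4 at 44.1%, Uqcrfs1 at 48.6% and Ndufb1 at 56.4%. Of those that fell, Atp5b was at 51.6%, Ndufs3 at 53.8%, Atp5a1 at 54.5%, Ndufv1 at 56.7%, Uqcrc1 at 57.5% and Ndufa13 at 60.4%, so Ndufb1 rose with the GC content of Ndufv1, which fell.

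After a correction for GC content in each library, no fall passed. Against P-SSCs 8 members were above and 0 below, where 11.6% of all genes were higher and 7.14% lower, and against BM-MSCs 4 were higher and 0 lower, with 6.49% and 2.62% of all genes. Members past the threshold in both were Atp5md, Atp5j, Ndufb1 and Uqcrfs1. The median over members became 0.82 and 0.63, where that of all genes moved from -0.47 to 0.30 and from -0.53 to 0.25. The correction therefore changed the scaling of the libraries as well. With the split of libraries as a covariate instead, 5 members were higher (Atp5md, Ndufa4, Ndufb1, Ndufs4 and Uqcrb) and 0 lower against P-SSCs, beside 2.8% and 5.12% of all genes. Against BM-MSCs 0 members passed limma's test in that fit, with 16 at an unadjusted p under 0.05, beside 0.0953% and 0.198% of all genes. Correlations with GC content after correction were -0.34 and -0.43 over the members. In the fit with the split, the graft is in effect compared with P-SSC 4 alone among P-SSCs. P-SSC 4 was the lowest library for 44 of the 80 members, so this fit cannot decide which rises and falls hold. Leaving the split aside, the rises of Atp5md, Ndufb1 and Uqcrfs1 against P-SSCs passed limma's test with and without the GC correction. Of these rises, edgeR called only that of Atp5md, and DESeq2 those of Atp5md and Uqcrfs1. The 6 genes that fell passed limma's test only without the correction.

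**Figure D5:**
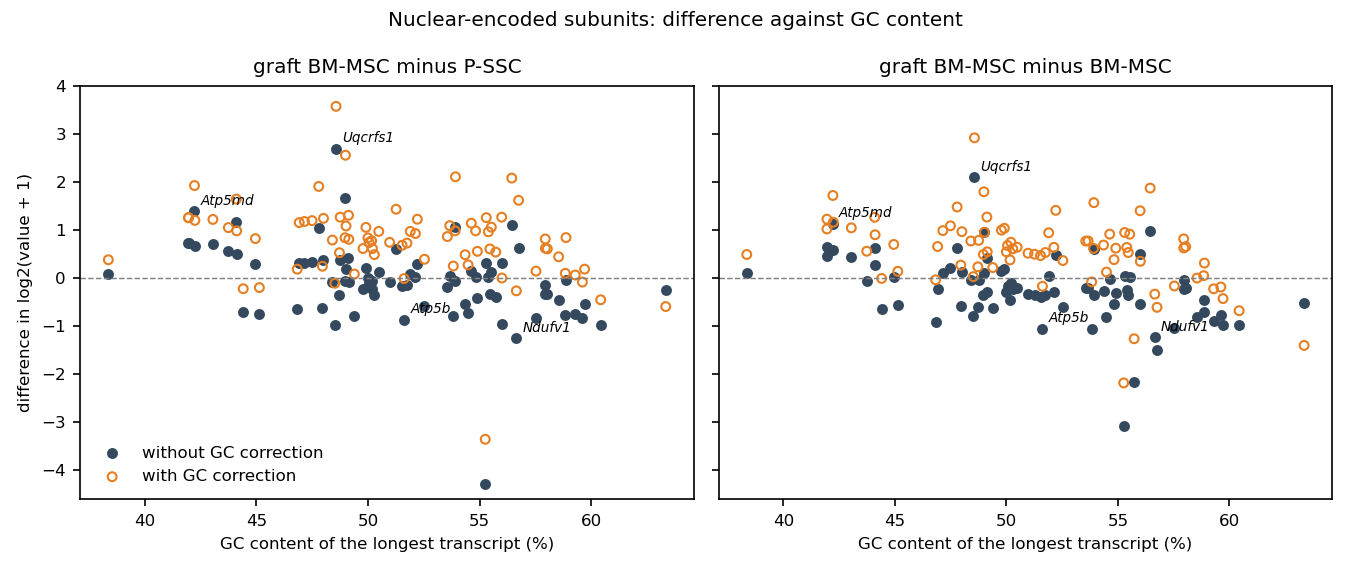
Difference in log2(value + 1) of the 80 members tested against the GC content of their longest coding transcript (percent), for graft BM-MSCs against P-SSCs (left) and BM-MSCs (right), without (filled) and with (open) a correction for GC content. Filled points fall with GC content, with Spearman correlations of -0.46 and -0.48, and open points lie higher, with medians of 0.82 and 0.63.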

How the data were processed

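RNA of 10 libraries of sorted mouse cells was sequenced after poly(A) selection. The methods name the mouse genome GRCm38, and the submitters' processing notes list GRCm39, STAR 2.5, featureCounts of Subread 1.4.6 and DESeq2 1.26.0, so the build used was not settled and gene positions were taken from GENCODE M21 (GRCm38) by Ensembl identifier. For each gene, the authors deposited a signal for every library, read counts divided by a size factor. No column was left without a sample. Replicates held RNA of distinct mice or pairs of mice. Strand and filters are not given in the sources used here, so reads of overlapping or near-identical genes may be shared.

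Dividing by the value of 1 read gave whole reads (within 0.01) for 100% of values. Differences were tested with limma 3.58.1 in R 4.3.3 on log2(value + 1) for 13644 genes whose mean reached 10, with 1 mean per group over all 10 libraries, a trended variance and Benjamini-Hochberg adjustment (two-sided, threshold 0.05). Fold changes on this scale understate changes of low genes. Values are those deposited. edgeR 4.0.16 and DESeq2 1.42.0 were run on the recovered reads as alternatives. The GC correction subtracted a loess curve (span 0.3) of each library's deviation over GC content. The level of the curve was removed with its shape, so the correction also rescales each library. The split covariate sets the graft libraries and P-SSC 4 against the others and was defined from these data.

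Also tried were other pseudocounts (0.1 and 5), testing every gene, a stricter minimum of 100, median centring, quantile normalization, fits of only both groups compared, leaving out each library, and a replicate block. The methods were tested on simulated data. The members and all lists were chosen with earlier results of these data known. Values per library were given for up to 5 largest rises and falls per comparison among called members, for core subunits, for tissue isoforms and for the member with the highest mean in each complex. Values of some genes under this rule are not reported here.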

Additional observations from a re-analysis of the deposited data

Results flagged for a closer look

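In the graft BM-MSC group, the highest library stood apart from the other 3 by Dixon's criterion for 5 of the 80 members tested, and all 5 were highest in graft BM-MSC 2. These were Ndufa4 at 7386 (others 4900.3 to 4953), Ndufa10 at 3706 (others 1337 to 1669), Ndufa11 at 3432 (others 1723 to 2004), Uqcrb at 3831 (others 2551 to 2754) and Ndufs6 at 2907 (others 1609 to 1826). Chance alone marks about 1 in 20 groups where genes are independent. Members share their libraries and all 5 marks fell in 1 library, so this rate cannot decide whether chance gave them. Without graft BM-MSC 2 the log2 difference of Ndufa4 against P-SSCs was 1.02 (adjusted p = 0.0424, limma). Graft BM-MSC 2 also had the fewest genes detected, 9308 of 15078. Its part in these values was not tested.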

How the results depend on the processing

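Among nuclear-encoded subunits, 9 were called in graft BM-MSCs against P-SSCs, 6 against BM-MSCs and 0 between P-SSCs and BM-MSCs. The first count was 4 with median centring, 3 with only both groups in the fit, 5 with the split as a covariate, 4 by edgeR and 11 by DESeq2. The second was 2, 12, 0, 2 and 11 under the same settings. The third was 1 with only both groups and 2 by DESeq2. Leaving out 1 library in turn gave 3 to 19, 2 to 12 and 0 to 2, with the highest counts in the graft comparisons without P-SSC 4, and the lowest without P-SSC 1 in the first and without BM-MSC 2+4 or BM-MSC 3 in the second. The alternatives for mitochondrially encoded subunits were chosen after seeing the data. For these, leaving out 1 library gave 11 against P-SSCs in each case, 6 to 11 against BM-MSCs and 0. Their count against BM-MSCs was 4 with the split, and 1 was called between P-SSCs and BM-MSCs with quantile normalization.

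With a replicate block the counts of nuclear-encoded subunits were 0, 0 and 0, also with the GC correction (0, 0 and 0), and those of mitochondrially encoded ones 4 and 0 (6 and 0 with the GC correction). Libraries with the same number in different groups correlated between -0.0192 and 0.0295. Libraries of combined RNA were not part of this comparison. Such low correlations cannot show whether libraries share a mouse, so whether the numbers pair the mice was not settled.

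Directions reversed for Atp5a1 with the GC correction (0.28 and 0.13) and with the block added (0.17 and 0.13), and for Uqcrc1 against P-SSCs with the GC correction (0.15). The median difference of all members moved to 0.82 and 0.63 with the GC correction, 0.76 and 0.67 with the block added, and 0.47 and 0.52 with the split. The other called members kept their direction under all alternatives. Beyond the construction of each setting, the cause was not tested.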
